A study of Mus musculus with 8 samples.

Results

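The genes described here are 10 genes of natural killer (NK) cells and of group 2 innate lymphoid cells (ILC2), taken by gene symbol from the 54532 genes of the count table. NK cells account for 7 of them (*Nkg7*, *Prf1*, *Gzma*, *Gzmb*, *Klrb1c*, *Ncr1* and *Eomes*) and ILC2 for 3 (*Gata3*, *Il1rl1* and *Il5*). RNA was sequenced from GFP+ (mG+) cells that were FACS-sorted from female mice aged 8 months. All mice carried Tie2e-cre and the mTmG reporter, which turns a cell from membrane Tomato to membrane GFP where Cre has acted in it or its ancestors. The Tie2 promoter behind this Cre is known to be active in endothelial cells and also in many blood cells and their precursors. EC-*Tert*-KO mice (KO) were TERTfl/fl and WT mice were TERT+/+, so that the comparison is of *Tert* deletion with Cre and reporter present on both sides. The libraries came from subcutaneous adipose tissue (SAT) of mice on a high fat diet (HFD) and from SAT, visceral adipose tissue (VAT) and skeletal muscle of mice on chow. Each of these 4 tissue and diet groups held 1 KO and 1 WT library, 8 in all, and nothing says whether cells of several mice were pooled or whether the tissues came from the same mice.

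NK cells are cytotoxic innate lymphocytes that kill target cells by releasing granules of perforin and granzymes, and they sense targets with receptors that include NK1.1 and NKp46. ILC2 lack antigen receptors, depend on the transcription factor GATA3, sense IL-33 through its receptor ST2, and release IL-5 and IL-13; in adipose tissue they are known for sustaining eosinophils. Few of these genes are restricted to 1 cell type: cytotoxic T cells share the granule genes, while T helper 2 cells, some regulatory T cells and mast cells share *Il1rl1* or *Gata3*. In RNA of a mixed population, fewer cells of a type and less RNA per cell cannot be told apart.

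The libraries held between 6214269 and 18855772 counts. Levels are given as CPM, counts per 1000000 after TMM scaling, on which the floor of 3 counts corresponds to 0.184 to 0.434 CPM. *Tert*, the deleted gene, counted 114 (WT) and 0 (KO) in the HFD-fed SAT libraries, 70 and 11 in the chow-fed ones, and 24 and 7 in muscle. In VAT it had 3 counts in the library labelled WT and 9 in the library labelled KO, against the labels, so a direction between the VAT libraries rests on labels that *Tert* does not bear out. The SAT chow WT library stood apart: the nuclear RNA *Malat1* had 299 CPM there, against 2176 to 6005 CPM in the other 7 libraries. In that pair the median log2 KO/WT ratio of all genes was -0.58 for transcripts of 1000 to 2000 bases and 0.31 for those of 4000 bases or more. *Ptprc* (CD45, on all leukocytes) had 1229 to 2550 CPM, and *Cd3e*, a chain of the T cell receptor complex, had 25.6 to 287 CPM, so the sorted cells held leukocyte RNA, T cell RNA included, in each library. The endothelial marker *Cdh5* (VE-cadherin) ranged from 13.6 CPM in SAT on HFD to 370.5 CPM in muscle.

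Promoters of 3 members are shown because these had the highest fitted log2 fold changes of VAT over SAT on chow. The 250 bases before the RefSeq start (GRCm38.p6) are written 5′ to 3′ on the strand of the gene. Capitals mark GATA, the core bound by GATA factors, and GGTGT, part of the site bound by T-box factors such as EOMES, each searched on both strands (as TATC and ACACC on the other).
Gzma (chr13:113100982-113101231, minus strand): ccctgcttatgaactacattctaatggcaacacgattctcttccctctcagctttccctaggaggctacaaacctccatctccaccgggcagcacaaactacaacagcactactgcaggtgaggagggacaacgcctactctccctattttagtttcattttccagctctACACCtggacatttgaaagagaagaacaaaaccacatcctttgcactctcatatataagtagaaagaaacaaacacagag
Il1rl1 (chr1:40429320-40429569, plus strand): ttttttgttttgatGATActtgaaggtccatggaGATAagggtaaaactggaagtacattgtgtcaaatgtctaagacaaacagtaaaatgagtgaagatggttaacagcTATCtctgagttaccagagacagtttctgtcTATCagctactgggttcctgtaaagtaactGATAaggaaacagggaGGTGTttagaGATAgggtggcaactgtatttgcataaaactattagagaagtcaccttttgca
Il5 (chr11:53720544-53720793, plus strand): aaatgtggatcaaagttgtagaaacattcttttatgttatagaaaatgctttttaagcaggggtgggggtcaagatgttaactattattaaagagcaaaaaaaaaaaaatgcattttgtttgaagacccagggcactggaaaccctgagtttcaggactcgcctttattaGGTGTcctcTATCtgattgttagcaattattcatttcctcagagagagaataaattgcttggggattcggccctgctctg
The *Il1rl1* window held GATA 6 times and GGTGT 1 time, that of *Il5* held each 1 time, and that of *Gzma* held GGTGT 1 time and no GATA. The letters are common: of 32851 windows of this length before RefSeq starts, 53.6% held GATA and 36.2% held GGTGT. All 10 members had a window, of which 7 held GATA and 8 held GGTGT. For *Gata3* this start lay 11434 bases from the outer end of the gene in the count table, and the matches are a description of letters, not of binding.

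Compared per length, *Nkg7* was the highest member, with a mean of 128 CPM per kilobase over the 8 libraries, followed by *Gzma* (63.8), *Gzmb* (23.7) and *Prf1* (18.3). *Gata3* (13.0), *Il1rl1* (12.4), *Eomes* (10.1), *Il5* (8.48), *Ncr1* (7.37) and *Klrb1c* (6.50 CPM per kilobase) followed. The 4 granule genes headed the list by mean and by median. By median *Il1rl1* (4.09) and *Il5* (0.495 CPM per kilobase) came last, below *Klrb1c* (5.24) and *Ncr1* (5.88), since their means rest on VAT. All 10 members passed the filter of a mean of at least 10 counts.

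**Figure D1:**
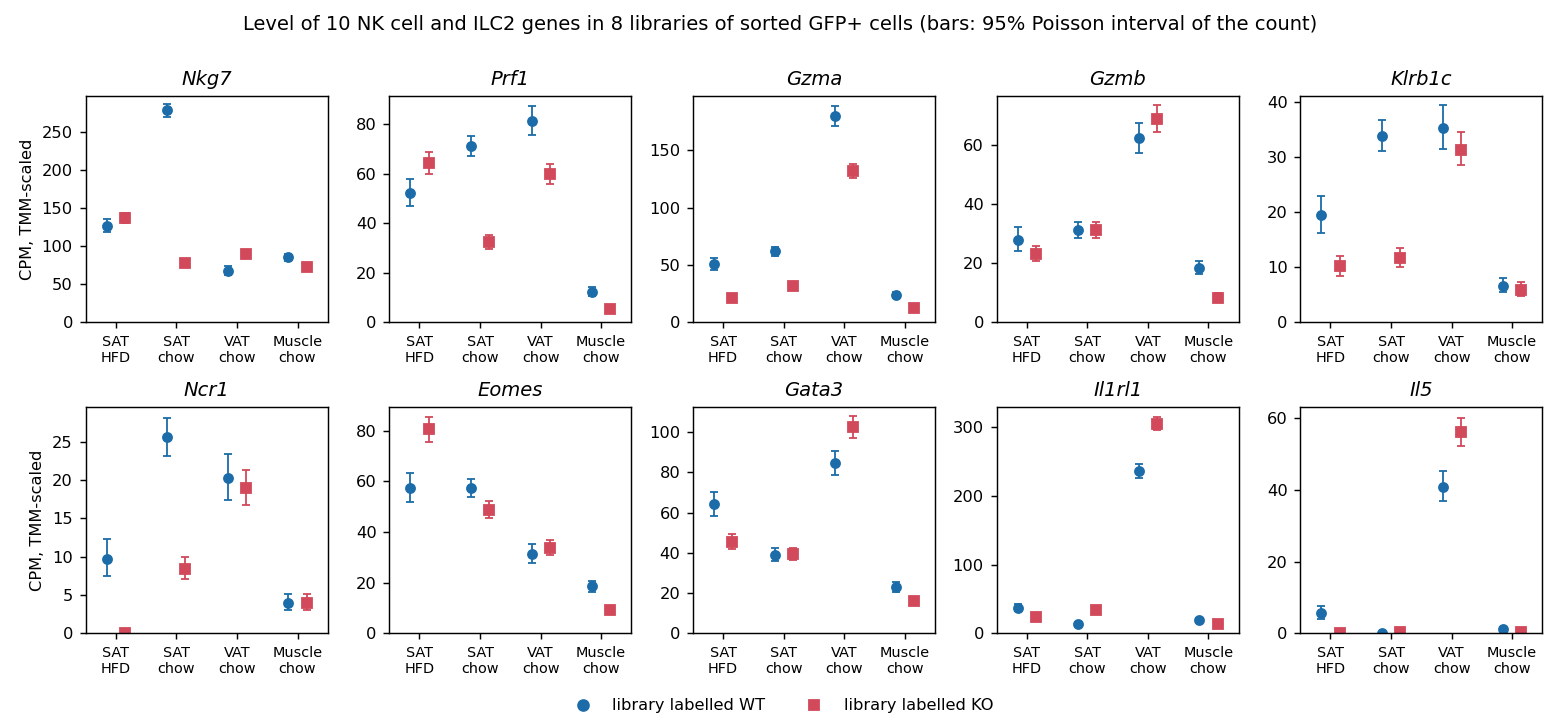
Level of each gene in CPM after TMM scaling (y axis, from 0) in the 4 tissue and diet groups (x axis), with blue circles for libraries labelled WT, red squares for libraries labelled KO, and bars for the 95% Poisson interval of the count. Both VAT libraries lie above the other 6 for *Gzma*, *Gzmb*, *Gata3*, *Il1rl1* and *Il5*, *Eomes* is highest in SAT, and *Nkg7* is highest in the SAT chow WT library (279 CPM).

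The granule genes did not share 1 tissue pattern. *Gzma*, granzyme A, a serine protease delivered into target cells (ENSMUSG00000023132, chr13:113093825-113100981, GRCm38), had 180.0 CPM in the WT-labelled and 132 CPM in the KO-labelled library of VAT. It had 61.7 and 31.9 CPM in WT and KO of SAT on chow, 50.8 and 20.8 CPM in SAT on HFD, and 23.7 and 12.7 CPM in muscle. VAT thus lay above every other library, while the ranges of SAT on chow and SAT on HFD overlapped, as did those of SAT on HFD and muscle.

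*Gzmb*, granzyme B, which activates caspases in target cells (ENSMUSG00000015437, chr14:56258838-56262260), had 62.4 and 69.0 CPM in VAT, labelled WT and KO. WT and KO had 31.3 and 31.3 CPM in SAT on chow, 28.1 and 23.2 CPM in SAT on HFD, and 18.5 and 8.25 CPM in muscle. The 4 groups did not overlap and kept the order VAT, SAT on chow, SAT on HFD, muscle.

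*Prf1*, perforin, which opens the membrane of target cells (ENSMUSG00000037202, chr10:61297833-61304680), had 81.4 and 59.9 CPM in VAT, 71.2 and 32.4 CPM in SAT on chow, 52.2 and 64.3 CPM in SAT on HFD, and 12.3 and 5.31 CPM in muscle, WT before KO. The adipose groups overlapped, and both muscle libraries lay below them. *Nkg7*, a granule membrane protein (ENSMUSG00000004612, chr7:43437073-43438249), had 67.7 and 89.4 CPM in VAT, 279 and 77.2 CPM in SAT on chow, 127 and 137 CPM in SAT on HFD, and 85.3 and 73.0 CPM in muscle, and the KO library of SAT on chow fell among those of VAT and muscle.

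The NK cell receptors differed in whether muscle stood apart. *Klrb1c*, NK1.1 of the C-type lectin family (ENSMUSG00000030325, chr6:128778485-128789215), had 35.3 and 31.3 CPM in VAT, 33.8 and 11.7 CPM in SAT on chow, 19.4 and 10.1 CPM in SAT on HFD, and 6.57 and 5.90 CPM in muscle, WT before KO. *Ncr1*, NKp46, an activating receptor (ENSMUSG00000062524, chr7:4337724-4345164), had 20.2 and 18.9 CPM in VAT, 25.6 and 8.43 CPM in SAT on chow, 9.69 and 0 CPM in SAT on HFD, and 3.99 and 3.98 CPM in muscle. *Klrb1c* has close relatives beside it in the genome, with which it may share reads. For both receptors VAT overlapped with SAT on chow, and SAT on chow with SAT on HFD. Both muscle libraries lay below the other 6 for *Klrb1c*, whereas for *Ncr1* they fell between the WT and the KO library of SAT on HFD.

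*Eomes*, a T-box factor of NK cell and cytotoxic T cell maturation (ENSMUSG00000032446, chr9:118478212-118486132), had its highest levels in SAT, with 57.3 and 80.6 CPM on HFD and 57.3 and 48.7 CPM on chow, WT before KO. VAT had 31.3 and 33.8 CPM, and muscle 18.5 and 9.21 CPM. The SAT groups overlapped each other and lay above VAT, and VAT lay above muscle, an order that differs from that of the granzymes.

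The ILC2 genes were highest in VAT. *Il1rl1*, which encodes ST2 (ENSMUSG00000026069, chr1:40429570-40465415), had 236 CPM in the WT-labelled and 305 CPM in the KO-labelled VAT library, against 13.3 to 37.3 CPM in the other 6 libraries. *Il5*, the cytokine that eosinophils need (ENSMUSG00000036117, chr11:53720794-53725106), had 368 and 767 counts in VAT, which is 40.9 and 56.0 CPM. Elsewhere *Il5* had 39 and 0 counts in WT and KO of SAT on HFD, 0 and 4 in SAT on chow, and 20 and 4 in muscle, so that 5 of these 6 libraries had 0 to 1.23 CPM and the WT library of SAT on HFD 5.64 CPM.

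*Gata3*, the transcription factor that ILC2 and T helper 2 cells require (ENSMUSG00000015619, chr2:9857078-9890034), had 84.6 and 102 CPM in VAT, 64.2 and 45.5 CPM in SAT on HFD, 39.1 and 39.4 CPM in SAT on chow, and 23.0 and 16.0 CPM in muscle, WT before KO. The 4 groups did not overlap. Both VAT libraries lay above the other 6 for these 3 genes and for *Gzma* and *Gzmb*, as for 14.5% of all genes, and both muscle libraries lay below the other 6 for *Prf1*, *Gzmb*, *Klrb1c*, *Eomes* and *Gata3*, as for 3.29%. Scaled to *Ptprc*, which had 1460 and 1229 CPM in VAT against 2146 and 2550 CPM in SAT on chow, *Il1rl1* ranged from 6.49 to 248 and *Gzma* from 9.87 to 123 counts per 1000 *Ptprc* counts.

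Whether a level depended on tissue and diet at all was tested with edgeR's quasi-likelihood test over the 4 groups, with genotype as a term and Benjamini-Hochberg adjustment over 16971 genes. In this and the next comparisons the replicates of a tissue are its WT and its KO library, 2 in each group, and the comparisons share libraries. The test called 7 of the 10 members, against 7.93% of all genes, and 8 had an unadjusted p under 0.05, against 21.9%. They were *Gzma* (edgeR adjusted p = 0.00393), *Il1rl1* (adjusted p = 0.00459), *Prf1* (adjusted p = 0.0201), *Gata3* (adjusted p = 0.0215), *Gzmb* (adjusted p = 0.0398), *Eomes* (adjusted p = 0.0437) and *Il5* (adjusted p = 0.0438). *Klrb1c*, *Ncr1* and *Nkg7* did not pass, at adjusted p = 0.075, 0.467 and 0.421 in edgeR. Without either VAT library or either muscle library the count was 2.

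Between VAT and SAT on chow, *Il1rl1* and *Gzma* were higher in VAT. *Il1rl1* differed by a log2 fold change of 3.53 (SE 0.52, edgeR adjusted p = 0.0133), which is 11.6-fold, and *Gzma* by 1.81 (SE 0.32, edgeR adjusted p = 0.0215), which is 3.51-fold. These are 2 of 10 members, where 3.13% of all genes were called higher and 1.87% lower (5% in either direction). Unadjusted, 5 members had p under 0.05, against 20.7% of all genes. *Il5* had a fitted log2 fold change of 8.56 (SE 1.99) that did not pass at edgeR adjusted p = 0.0518; with 0 and 4 counts in SAT the fitted size depends on the prior count. *Gata3* (1.26, SE 0.34, adjusted p = 0.0764) and *Gzmb* (1.08, SE 0.40, adjusted p = 0.179) did not pass in edgeR either, nor did *Nkg7*, at -1.05 (SE 0.53, adjusted p = 0.311) and lower in VAT. Without the KO-labelled VAT library neither call remained, with adjusted p = 0.0728 for *Il1rl1* and 0.14 for *Gzma* in edgeR, and without the WT-labelled one *Gzma* had adjusted p = 0.0857. With no replicate block *Gzma* lost its call too (1.74, edgeR adjusted p = 0.0837). Without the SAT chow WT library both passed, at 3.07 (adjusted p = 0.0125) and 2.02 (adjusted p = 0.0242) in edgeR.

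**Figure D2:**
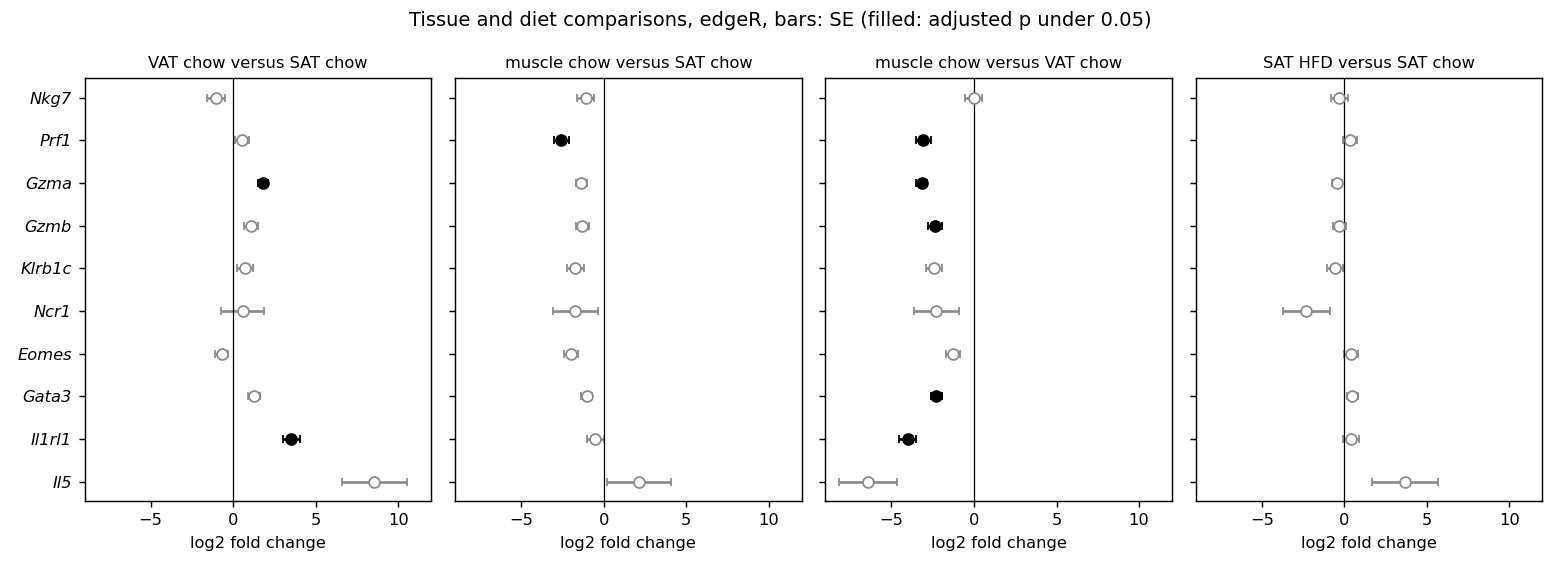
Log2 fold change of each gene (x axis) in the comparisons of tissue and diet, from the edgeR fit over 8 libraries, with SE as bars and filled points for an adjusted p under 0.05. *Il1rl1* and *Gzma* are filled in VAT against SAT on chow, 5 genes are filled below 0 in muscle against VAT, *Prf1* is filled in muscle against SAT on chow, and no gene is filled for diet.

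Muscle differed from VAT in 5 of the 10 members, all lower in muscle, where 1.03% of all genes were called lower and 0.99% higher (2.02% in all). Unadjusted, 8 members had p under 0.05, against 12.8% of all genes. *Il1rl1* fell by 4.02 on the log2 scale (SE 0.53, edgeR adjusted p = 0.012) and *Gzma* by 3.17 (SE 0.34, edgeR adjusted p = 0.00578). *Prf1* fell by 3.07 (SE 0.46, edgeR adjusted p = 0.0184), *Gzmb* fell by 2.36 (SE 0.42, adjusted p = 0.0366) and *Gata3* fell by 2.29 (SE 0.35, adjusted p = 0.0195). These are 3 of the 4 granule genes and 2 of the 3 ILC2 members. *Nkg7*, the remaining granule gene, had a log2 fold change of -0.03 (SE 0.51, edgeR adjusted p = 0.997). *Klrb1c* (-2.42, SE 0.50, adjusted p = 0.0562) and *Il5* (-6.40, SE 1.76, adjusted p = 0.132) did not pass in edgeR. The calls rested on every VAT and muscle library: 1 call remained without the WT-labelled VAT library and 0 without the KO-labelled one, 1 without the WT and 0 without the KO library of muscle, where the edgeR adjusted p of *Gzmb* reached 0.418.

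Between muscle and SAT on chow, *Prf1* was lower in muscle by a log2 fold change of -2.56 (SE 0.45, edgeR adjusted p = 0.0422), 5.88-fold, where 0.165% of all genes were called lower and 1.1% higher (1.27% in all). Unadjusted, 6 members had p under 0.05, against 11.5% of all genes. *Eomes* had -1.95 (SE 0.42, adjusted p = 0.0773) and *Gzma* -1.35 (SE 0.32, adjusted p = 0.104) in edgeR and did not pass. The call of *Prf1* was lost without the SAT chow WT library (-2.04, edgeR adjusted p = 0.0961), without either VAT library (adjusted p = 0.0736 and 0.073, WT and KO) and without the WT or the KO library of muscle (adjusted p = 0.171 and 0.381).

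HFD against chow in SAT gave no call in any member, and 0% of all genes passed in edgeR. Unadjusted, 9.29% of all genes and 0 of 10 members had p under 0.05, while DESeq2 called 260 genes and no member. *Il5*, with 39 counts in 1 of the HFD libraries and 0 in the other, had a fitted log2 fold change of 3.68 (SE 2.0) at edgeR adjusted p = 0.615. *Ncr1* had -2.30 (SE 1.42) at edgeR adjusted p = 0.658, and the other 8 members lay between -0.56 and 0.47.

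**Figure D3:**
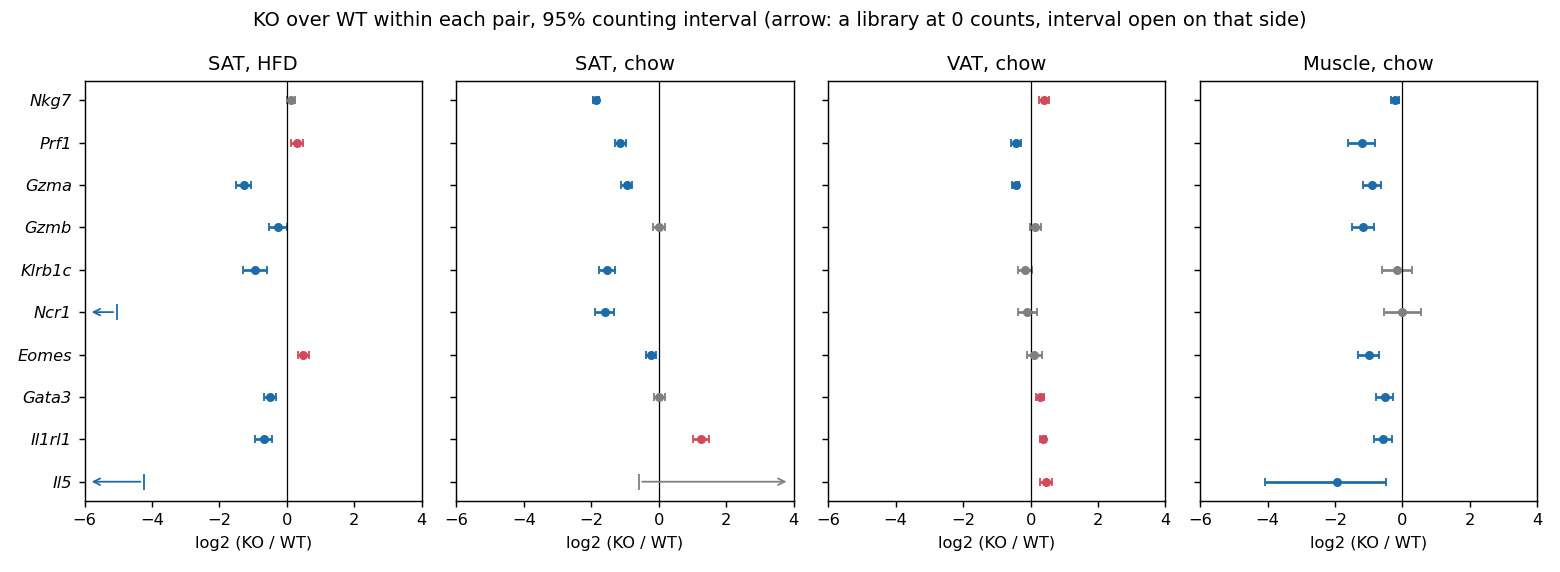
Log2 ratio of KO to WT within each pair of libraries (x axis, 1 panel per tissue and diet) with the 95% counting interval, red where it lies above 0, blue below and grey where it spans 0; arrows mark a library at 0 counts. Muscle has 8 genes below 0 and none above, and SAT on chow has 6 below and *Il1rl1* above.

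KO over WT was compared within each pair, with 1 library per genotype, so no replicate error exists there and the 95% intervals (exact conditional binomial) cover counting error only. Most genes differ by more than that error: the interval lay above 0 for 39.4% and below 0 for 33.2% of all genes that averaged 10 counts or more in SAT on HFD, 41.1% and 40.2% in the chow-fed SAT pair, 26.6% and 24.7% in VAT, and 27.1% and 28.9% in muscle. Over the 40 combinations of member and pair, 23 intervals lay below 0, 7 above and 10 spanned it.

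In SAT on HFD, 7 members were lower in KO by their intervals and 2 higher. *Ncr1* had 67 counts in WT and 0 in KO, at least 41.8-fold lower with KO set to the floor of 3 counts, and *Il5* had 39 and 0, at least 24.3-fold lower on the same footing. The counting intervals, which also hold the error of the WT count, ended at log2 ratios of -5.05 and -4.24. Loss of all counts was not particular to them: of the 2568 genes with 45 to 100 counts in this WT library 5.96% had 0 in KO, and of the 2640 with 26 to 58 counts 21.1% did. *Gzma* had a log2 ratio of -1.29 (-1.52 to -1.06), *Klrb1c* -0.93 (-1.30 to -0.58), *Il1rl1* -0.69 (-0.94 to -0.45) and *Gata3* -0.50 (-0.68 to -0.32). *Eomes* was higher in KO, at 0.49 (0.32 to 0.66), as was *Prf1* at 0.30 (0.12 to 0.48). The NK receptors and the granzymes thus pointed down while perforin and *Eomes* pointed up; scaled to *Ptprc* counts, *Prf1* was at 0.053 and its interval spanned 0. T cell markers summed to 2132 CPM in WT and 2532 CPM in KO, and their part was not tested.

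In SAT on chow, 6 of the 7 NK cell members had lower levels in KO and *Gzmb* had 505 counts in both libraries. *Nkg7*, with 4505 counts in WT and 1245 in KO, had -1.85 (-1.94 to -1.76), *Ncr1* -1.60 (-1.89 to -1.32), *Klrb1c* -1.53 (-1.78 to -1.29), *Prf1* -1.13 (-1.29 to -0.98), *Gzma* -0.95 (-1.11 to -0.80) and *Eomes* -0.23 (-0.37 to -0.09). The 12 T cell markers summed to 4651 CPM in WT and 2257 CPM in KO, with 11 of 12 intervals below 0. Transcripts under 1000 bases, among them *Nkg7* with 914, had a median of -0.35 in this pair, and the part of T cells, length and the SAT chow WT library in these ratios was not tested. *Il1rl1* went the other way, from 225 to 536 counts, a log2 ratio of 1.25 (1.03 to 1.49), *Gata3* had 0.01 (-0.15 to 0.17), and *Il5* had 0 and 4 counts, within counting error. Scaling by library totals, which shifted all ratios of this pair by 0.23, moved *Eomes* to -0.0081 and *Gzmb* and *Gata3* to 0.23 and 0.24, above 0 by their intervals.

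In VAT, where *Tert* did not bear out the labels, all 3 ILC2 genes were higher in the library labelled KO. *Il5* was higher by 0.46 (0.27 to 0.64), *Il1rl1* by 0.37 (0.29 to 0.44) and *Gata3* by 0.28 (0.15 to 0.41). *Nkg7* was higher there too, by 0.40 (0.26 to 0.54). *Prf1* (-0.44, -0.59 to -0.30) and *Gzma* (-0.45, -0.54 to -0.35) were lower, and *Gzmb*, *Klrb1c*, *Ncr1* and *Eomes* spanned 0. Scaled to *Ptprc*, *Gzmb* (0.40) and *Eomes* (0.36) were above 0 as well. With TMM scaling no member in VAT exceeded 0.46 in size.

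In muscle, 8 members were lower in KO and none higher, against 28.9% of all genes below 0. *Il5*, with 20 counts in WT and 4 in KO, had -1.94 (-4.07 to -0.48). *Prf1* had -1.21 (-1.63 to -0.82), *Gzmb* -1.16 (-1.49 to -0.84), *Eomes* -1.01 (-1.32 to -0.70), *Gzma* -0.89 (-1.16 to -0.63), *Il1rl1* -0.57 (-0.84 to -0.30), *Gata3* -0.52 (-0.77 to -0.28) and *Nkg7* -0.22 (-0.34 to -0.10). *Klrb1c* (-0.15) and *Ncr1* (0.00) spanned 0. The ratio of *Nkg7* was -0.060 with library totals and -0.013 when scaled to *Ptprc*, and its interval then spanned 0. The T cell markers summed to 934 CPM in WT and 636 CPM in KO and *Foxp3* fell from 13.0 to 3.91 CPM, and their part in these ratios was not tested.

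Across the pairs, with tissue and diet as a block, edgeR called no member for genotype, where 0.00589% of all genes, that is 1, was called. *Gzma* came nearest, lower in KO in 4 of 4 pairs with VAT as labelled, at a log2 difference of -0.89 (SE 0.23), an unadjusted p of 0.00409 and an edgeR adjusted p of 1; 1.63% of all genes had an unadjusted p under 0.05, and DESeq2 called 19 genes and no member. Without the VAT pair the difference was -1.02 (edgeR adjusted p = 1). Between the pairs its ratio ran from -1.29 in SAT on HFD to -0.45 in VAT. With TMM scaling, *Klrb1c* (-0.70, SE 0.35) and *Ncr1* (-1.48, SE 1.07) were also lower in 4 of 4 pairs, each with 2 intervals that spanned 0, at edgeR adjusted p = 1. Scaled to *Ptprc*, the ratio of *Klrb1c* was 0.077 in VAT and 0.055 in muscle, and that of *Ncr1* was 0.15 and 0.21. The intervals of these ratios still spanned 0. Without the SAT HFD pair the difference of *Ncr1* was -0.57. No member was higher in KO in 4 of 4 pairs, and 9.58% of all genes had 1 direction in all 4. *Il1rl1* had 0.09 (SE 0.35), with KO lower in 2 pairs and higher in 2.

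**Figure D4:**
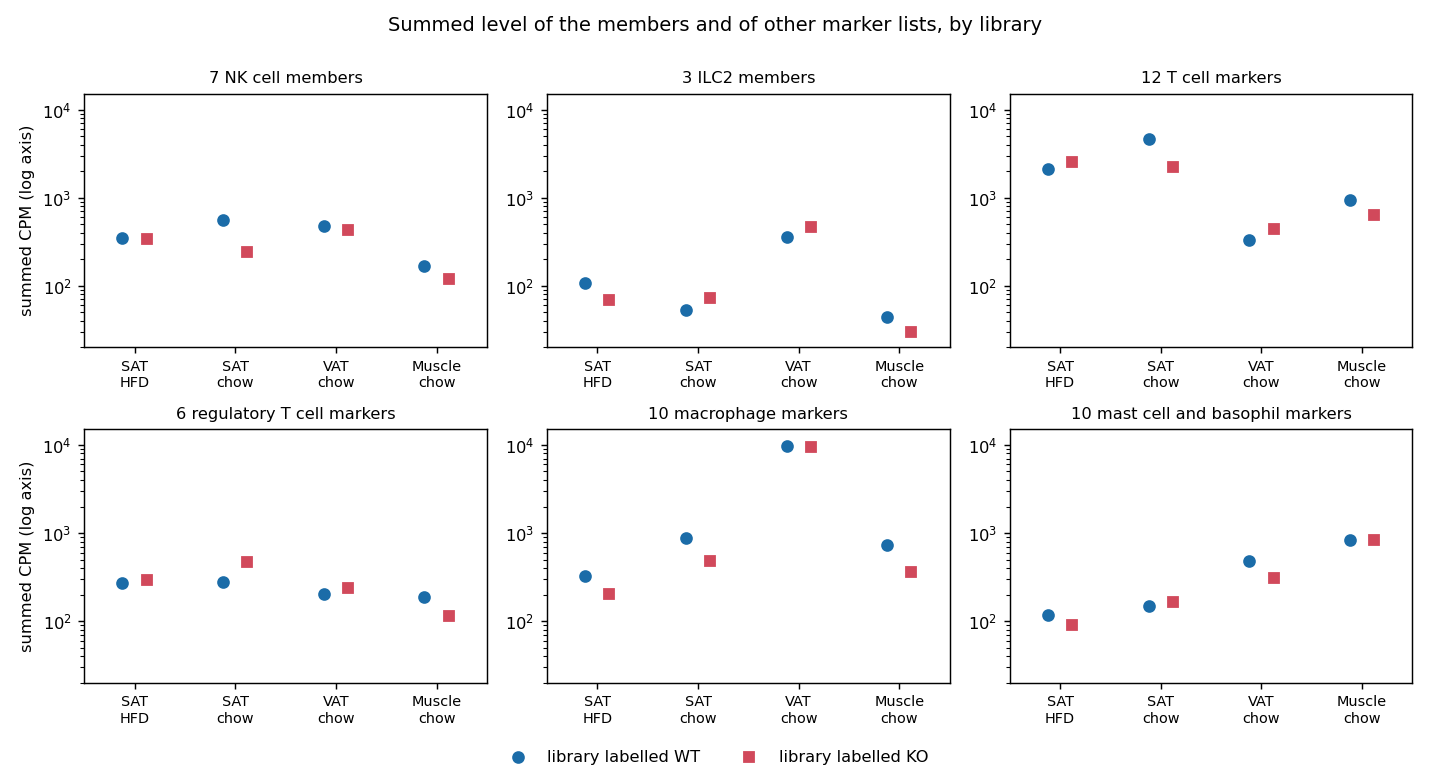
Summed level in CPM (y axis, log scale) of the NK cell members, the ILC2 members and 4 marker lists in each library, with blue circles for libraries labelled WT and red squares for those labelled KO. ILC2 members and macrophage markers are highest in VAT, whereas T cell markers are lowest there (328 and 443 CPM).

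Other genes of the same pathways were taken as lists and counted by the same tests. Of 19 further NK receptors and surface molecules, edgeR called 1 higher in VAT than in SAT on chow: *Fcgr3* (CD16, also on macrophages), by 3.73 (SE 0.49, adjusted p = 0.00961). Of 10 effectors, *Ccl3* (3.65, SE 0.34, adjusted p = 0.00397) and *Ccl4* (2.94, SE 0.53, adjusted p = 0.0234), chemokines that macrophages also make, were higher in VAT by edgeR, and of 6 factors *Zeb2* was (3.17, SE 0.38, adjusted p = 0.00695). All 10 macrophage markers were called higher in VAT as well, and the part of macrophages in these calls, *Zeb2* included, was not tested. *Tbx21* (T-bet, the other T-box factor of NK cells) had 0.65 (SE 0.35, edgeR adjusted p = 0.351) and *Klrk1* (NKG2D) -0.14 (SE 0.42, edgeR adjusted p = 0.888). Apart from these 4 genes, the lists of receptors, effectors and factors held no call in this comparison, and the median log2 fold change was 0.65 for the receptors and 0.18 for the effectors, against -0.13 for all genes.

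In muscle against VAT, edgeR called *Serpinb9* (the granzyme B inhibitor, -2.12, SE 0.36, adjusted p = 0.0317) and *Zeb2* (-1.83, SE 0.36, adjusted p = 0.0479) lower, and no receptor; the median of the 19 receptors was -1.48, against 0.06 for all genes. All 10 macrophage markers were called lower there too, and their part in these calls was not tested. In muscle against SAT on chow *Klrd1* (CD94, a chain of NK inhibitory and activating receptors) was lower by -2.25 (SE 0.34, edgeR adjusted p = 0.0287) and *Ccl3* higher by 2.17 (SE 0.32, edgeR adjusted p = 0.0255). Of 5 cytokines and presenting chains that act on NK cells, *Il12a* was called lower in VAT than in SAT on chow.

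Of 21 further ILC2 genes, 20 passed the filter. *Hs3st1* was higher in VAT than in SAT on chow (2.32, SE 0.49, edgeR adjusted p = 0.0386), and *Tcf7* (-3.58, SE 0.41, adjusted p = 0.00629) and *Bcl11b* (-2.57, SE 0.29, adjusted p = 0.00559), factors that T cells share, were lower by edgeR. *Il13*, the cytokine that ILC2 release with IL-5, had 9.99 and 15.2 CPM in VAT, labelled WT and KO, against 1.05 to 5.64 CPM elsewhere, and did not pass (2.06, SE 1.13, edgeR adjusted p = 0.355). *Il7r*, the receptor chain for IL-7, went the other way, with 145 and 164 CPM in VAT against 314 and 521 CPM in SAT on chow, and did not pass either (-1.41, SE 0.34, edgeR adjusted p = 0.06). In VAT against SAT on chow, 13 of the 20 genes had an unadjusted edgeR p under 0.05 in either direction, against 20.7% of all genes. Their median log2 fold change was 0.72, against -0.13 for all genes. The whole list went the other way in sum, with 1243 and 1452 CPM in VAT against 1916 to 3061 CPM in SAT. In that sum *Tcf7* had 1064 and 572 CPM in SAT on chow against 70.5 and 62.8 CPM in VAT. *Thy1* had 1117 and 393 CPM against 160 and 189 CPM. Muscle against VAT gave 1 call, *Ccr8* (-4.31, SE 0.54, edgeR adjusted p = 0.00946), and muscle against SAT on chow also 1, *Il7r* (-1.97, SE 0.35, edgeR adjusted p = 0.0446). None of 4 tested alarmins and receptor chains was called by edgeR (0 at an unadjusted p under 0.05 in VAT against SAT on chow), and *Il33*, the ligand of ST2, had -0.18 (SE 0.96, edgeR adjusted p = 0.938) in VAT against SAT on chow. Among 8 genes of eosinophils, the cells on which IL-5 acts, edgeR called *Alox15* higher in VAT than in SAT on chow (2.41, SE 0.51, adjusted p = 0.0378) and *Prg2* higher in muscle than in VAT (5.38, SE 0.73, adjusted p = 0.0129). All 10 macrophage markers were also called higher in VAT than in SAT on chow, and their part in the *Alox15* call was not tested. In VAT against SAT on chow the median of the 8 eosinophil genes was 1.98, against -0.13 for all genes, but the list was mixed. *Siglecf* had 16.1 and 12.7 CPM in VAT, as labelled, and 2.60 and 0.81 CPM in SAT on chow. *Epx* had 0 counts in both VAT libraries, and *Ear1* had 5 and 0.

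KO against WT across the pairs gave 0 edgeR calls in each NK, ILC2 and eosinophil list; DESeq2 was not counted per list. At an unadjusted p under 0.05 there were 5 of 19 NK receptors (*Cd244a*, *Klra8*, *Klrc1*, *Klra7* and *Fcgr3*, -1.55 to -0.73), 1 of 10 effectors (*Ccl5*, -0.73), 1 of 8 eosinophil genes (*Alox15*, -1.17) and 0 of 20 further ILC2 genes, against 1.63% of all genes. In the same test 6 of 10 macrophage markers and 6 of 8 stromal markers had an unadjusted p under 0.05, and their part was not tested. Within the SAT chow pair 14 of 19 NK receptors had intervals below 0 and 5 above, with a median of -1.01, against 40.2% below and 41.1% above for all genes. In muscle 12 were below and 0 above, with a median of -0.53, against 28.9% below and 27.1% above for all genes. *Klra8* (Ly49H) had lower levels in KO in 4 of 4 pairs by its interval, from -1.88 in VAT, as labelled, to -1.08 in SAT on HFD. It belongs to the Ly49 family of near-identical genes, so its reads may be shared with relatives. *Cd244a* (-1.05 in muscle to -0.56 in VAT, as labelled), *Gzma*, *Alox15* and some macrophage markers also had all 4 intervals below 0. The share of all genes with all 4 intervals below 0 was not counted. The ILC2 cytokine *Il13* pointed down in SAT on HFD (39 to 17 counts) and up in SAT on chow (17 to 82 counts), as *Il1rl1* did. Its list was mixed on HFD: of 21 further ILC2 genes, 8 intervals lay above 0 and 7 below, against 39.4% and 33.2% of all genes. On chow 12 lay above and 5 below, against 41.1% and 40.2%. The chow ratios rest on the SAT chow WT library, and its part was not tested.

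Markers of other cell types moved with the tissues. In VAT against SAT on chow, edgeR called 11 of 12 T cell markers lower, and *Foxp3*, *Ctla4* and *Tnfrsf4* of 6 regulatory T cell markers lower, *Foxp3* by -3.72 (SE 0.70, adjusted p = 0.0263). All 10 macrophage markers were higher in VAT, with sums of 9679 and 9594 CPM against 206 to 880 CPM elsewhere. *Gzma*, *Gzmb*, *Gata3* and *Il1rl1* were thus at their highest in the libraries where T cell markers were lowest, at 328 to 443 CPM in sum against 636 to 4651 CPM. *Eomes* went the other way, with its highest levels in the SAT libraries, where the T cell markers summed to 2132 to 4651 CPM. *Nkg7* was mixed: it had 279 CPM in SAT chow WT and 127 and 137 CPM in SAT on HFD. In SAT chow KO it had 77.2 CPM, less than the 89.4 CPM of the VAT library labelled KO. Of 10 mast cell and basophil markers none was called by edgeR in VAT against SAT on chow, and 3 had an unadjusted p under 0.05; *Kit* had 83.6 and 61.7 CPM in VAT, labelled WT and KO, against 15.9 to 50.5 CPM elsewhere. In muscle against VAT, all 10 macrophage markers were lower and 7 of 10 neutrophil markers higher. The part of these other cells in the tissue differences of the members was not tested.

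Likeness of pattern was described by Pearson's r of log2(CPM + 1) over the 8 libraries, which fall into 4 tissue and diet groups, among 13731 protein coding genes. *Il1rl1* and *Il5* had r = 0.95 with each other, *Gzma* and *Gzmb* 0.93, *Gzmb* and *Gata3* 0.93, and *Gzma* and *Klrb1c* 0.93. *Nkg7* had 0.01 with *Gzma*, and *Ncr1* -0.04 with *Eomes*, so the NK cell members did not form 1 pattern. Outside the members, *Prf1* was most like *Zbtb32* (0.957) and *Klrk1* (0.955), *Gzmb* most like *Slamf7* (0.969) and *Il2ra* (0.961), and *Gzma* most like *Retnla* (0.977) and *Dnase2a* (0.974). *Gata3* was most like *Tbx21* (0.976) and *Adora2a* (0.970), *Eomes* most like *BC049715* (0.956) and *Ildr1* (0.954), *Il1rl1* most like *Il10* (0.993) and *Dennd1a* (0.993), and *Il5* most like *Tmod1* (0.978) and *Serpinb8* (0.976). *Klrb1c* was most like *Ciart* (0.981) and *Acadvl* (0.973), *Ncr1* most like *Akr1c13* (0.982) and *Wdr35* (0.970), and *Nkg7* most like *Immp1l* (0.977) and *Cbr1* (0.975).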

How the data were processed

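The authors deposited 1 table of raw read counts for 8 libraries, with Ensembl gene identifiers and no scaling applied. Alignment with HISAT2 2.0.5 to GRCm38 (mm10) is named in the submitters' processing notes; the counting program and the use of strand are not given in the sources used here. The members and gene lists were chosen with earlier results of these data known.

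Libraries were scaled by TMM over all genes (edgeR 4.0.16, R 4.3.3). Within pairs, the ratio took a prior count of 0.5 and an exact 95% conditional binomial interval; a fold against a library at 0 is a bound computed with 3 counts per library. Intervals and floors cover counting error only, since reads without molecular identifiers are not independent molecules. Tissue, diet and genotype were tested with edgeR's quasi-likelihood test (robust, genes averaging 10 counts or more, 16971 of 54532), with Benjamini-Hochberg adjustment and a threshold of 0.05; residual degrees of freedom were 3. Samples were grouped by the labels. P-values measure the spread between these libraries, which may be technical. The block pairs the WT and KO library of a tissue and diet: after removal of genotype means, their correlation was 0.394, 0.143, 0.723 and 0.673 (SAT on HFD, SAT on chow, VAT, muscle), against -0.452 to 0.357 for other combinations.

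Genes named are the 10 members, the 2 protein coding genes most correlated with each, up to 4 called genes per list with the highest CPM per kilobase, and checks of cell type; *Tbx21*, *Klrk1*, *Il13*, *Il33*, *Klra8*, *Cd244a*, *Klrc1*, *Klra7*, *Ccl5* and *Malat1* were named after their values were seen. *Cd244* was listed and is not in the table under that symbol. Promoter sequences came from RefSeq. The procedure was tested on simulated data: at a dispersion of 0.1, VAT against SAT on chow recovered 7.46% of the genes changed 2-fold, 74.6% at 4-fold and 100% at 8-fold among 16971 genes, and at 0.4 none; KO against WT across pairs recovered 20.9%, 98.5% and 100%, and at 0.4 0%, 1.49% and 31.8%. Alternatives were DESeq2 1.42.0 (size factors and test), library totals, *Ptprc* counts as the scale, other count filters, a prior count of 5, no robust dispersion, no block, and leaving out each library or pair.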

Additional observations from a re-analysis of the deposited data

Results flagged for a closer look

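In SAT, 3 genes differed between KO and WT in opposite directions on the 2 diets, each beyond counting error. Such intervals were common among all genes: 39.4% lay above 0 and 33.2% below on HFD, and 41.1% and 40.2% on chow. The share of all genes with opposite directions was not counted, so the 3 are not set apart from other genes. *Il1rl1* was lower in KO on HFD (-0.69) and higher on chow (1.25), a difference of -1.94 between the log2 ratios. *Prf1* (0.30 and -1.13, a difference of 1.44) and *Eomes* (0.49 and -0.23, a difference of 0.73) went the other way. The difference between diets was not tested, because each ratio rests on 1 library per genotype. With library totals as the scale, *Eomes* on chow was at -0.0081. Scaled to *Ptprc* counts, *Prf1* on HFD was at 0.053 and its interval spanned 0. All 3 chow ratios rest on the SAT chow WT library, which stood apart in *Malat1* (299 CPM), and its part was not tested.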

How the results depend on the processing

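Without a filter on low counts, edgeR called 317 genes and 1 member (*Il5*) for HFD against chow in SAT, 2100 genes and 4 members for VAT against SAT on chow, 971 and 3 for muscle against SAT on chow, 1159 and 8 for muscle against VAT, 3302 genes for any difference among groups and 42 for KO against WT. DESeq2's test called 260, 2305 (4 members), 1058 (3 members), 1258, 3339 and 19 genes in the same order. The edgeR counts to set beside these are 0, 849, 215, 343, 1345 and 1. The block or pairing was left out in 1 alternative: with no replicate block, 338 genes and 2 members (*Eomes* gained at adjusted p = 0.0465) were called for muscle against SAT on chow, 539 genes for muscle against VAT and 0 for KO against WT, *Gzma* lost its call in VAT against SAT on chow (1.74, adjusted p = 0.0837), *Il5* gained one (8.50, adjusted p = 0.036), and no other member's call changed. With no block, *Nkg7* in muscle against VAT was at 0.010, and *Eomes* and *Il5* in KO against WT at 0.068 and 0.25, each turned in direction and not called.

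Leaving out 1 library gave 0 to 441 genes for HFD against chow in SAT (441 without SAT chow KO), 108 to 3510 genes and 0 to 5 members for VAT against SAT on chow, 39 to 1771 and 0 to 5 for muscle against SAT on chow, 39 to 1264 and 0 to 7 for muscle against VAT, and 529 to 4025 and 2 to 9 for any difference; the highest counts came without SAT chow KO (muscle against VAT: SAT chow WT) and the lowest without a VAT or muscle library; a lone library was assumed to vary like the other groups. The SAT chow and SAT HFD pairs were also left out of muscle against VAT, chosen after seeing the data: without SAT chow 1258 genes were called. Leaving out 1 pair gave 0 to 2 genes for KO against WT. *Nkg7* passed without SAT chow KO, lower in VAT (-1.88, edgeR adjusted p = 0.00713) and in muscle (-1.86, adjusted p = 0.0138). *Il5* in VAT against SAT on chow also passed with a mean of at least 50 counts (adjusted p = 0.0434), with DESeq2 (0.0201) and without robust dispersion (0.0499), and *Gata3* with DESeq2 (0.00368); over all alternatives the count of members called for genotype was 0.

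No value that turned in direction was called in the reported fit or where it turned, though *Nkg7* (VAT and muscle against SAT on chow) and *Il5* (HFD against chow) were called under another alternative; leaving out 1 library (or, for genotype, 1 pair) gave the ranges that follow. For HFD against chow in SAT, *Nkg7* ran from -1.13 to 0.97 (0.0050 with library totals), *Il5* from -3.80 to 8.30, *Prf1* from -0.35 to 1.04, *Eomes* from -0.071 to 0.95, *Klrb1c* from -1.04 to 0.23 and *Il1rl1* from -0.15 to 1.22. For VAT against SAT on chow, *Nkg7* ran from -1.88 to 0.23 and *Ncr1* from -0.44 to 1.59. For muscle against SAT on chow, *Nkg7* ran from -1.86 to 0.20 and *Il1rl1* from -1.06 to 0.36. For muscle against VAT, *Nkg7* ran from -0.50 to 0.48 (0.037 with library totals). For KO against WT, *Nkg7* ran from -0.62 to 0.090 and *Il1rl1* from -0.28 to 0.36, turning without SAT on chow, *Eomes* from -0.37 to 0.12 without muscle, and *Il5* from -2.03 to 0.0087 without SAT on HFD. Within pairs, 1 member was above 0 in SAT on HFD when scaled to *Ptprc* and 3 were above 0 in SAT on chow with library totals. Scaling moved all ratios of SAT on chow by 0.23 (library totals) or 0.11 (DESeq2) and of muscle by 0.16 (library totals), and *Ptprc* as the scale moved all 4 pairs, by -0.25 in both SAT pairs, 0.25 in VAT and 0.21 in muscle. The cause of these changes was not tested beyond the fewer libraries or genes each alternative uses. Depth limits *Il5* outside VAT, where it had 0 to 39 counts.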
